A study of Homo sapiens with 6 samples.

Results

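The genes described here are 31 genes of the MAPK (mitogen-activated protein kinase) output: feedback inhibitors, immediate early genes and further target genes, read from the brightest probe set that carries a single gene symbol. All 31 had such a probe set, out of 19775 genes on the array, and all 31 passed the filter of a mean log2 value of at least 5 over the arrays, which left 12317 genes for testing. The samples were 6 microarrays of HCA-7, a human colorectal cancer cell line that forms either spiky or cystic colonies when grown in 3-dimensional type-1 collagen. The spiky clone (sc1) and the cystic clone (cc3) were each isolated, grown untreated in collagen and sampled at day 5, 10 and 15, with 1 array for each clone and day. Each shape is represented by 1 clone of 1 line, so colony shape and clone cannot be told apart. The labels do not say whether the days came from separate cultures, so the p-values speak only of variation among the 6 arrays, and that variation may be technical. All values are log2 intensities, and all differences are log2 differences between groups unless a fold is named.

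The ERK branch of the MAPK pathway carries signals from growth factor receptors through Ras, RAF, MEK and ERK to the nucleus. Immediate early genes such as FOS and EGR1 are transcribed within minutes of a signal, through serum response factor and its ERK-phosphorylated partners and without new protein synthesis. Feedback inhibitors are induced by the same pathway and switch it off, with dual-specificity phosphatases (DUSPs) acting on the kinases and Sprouty and SPRED proteins acting upstream at Ras and RAF. In intestinal epithelium the pathway is known for driving proliferation, and in colorectal cancer it is often activated by mutation or by receptor ligands.

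The promoters of 3 immediate early genes that were higher at day 15 than at day 5 are shown because serum response factor binding through CArG boxes is the textbook route to this class of gene. Each run is the 250 bases before the RefSeq transcription start on GRCh38.p14, 5′ to 3′ on the + strand, at chr5:138465229-138465478 for EGR1, chr14:75278578-75278827 for FOS and chr19:13150161-13150410 for IER2. Capitals mark a match to any of 4 motifs searched on both strands.
EGR1: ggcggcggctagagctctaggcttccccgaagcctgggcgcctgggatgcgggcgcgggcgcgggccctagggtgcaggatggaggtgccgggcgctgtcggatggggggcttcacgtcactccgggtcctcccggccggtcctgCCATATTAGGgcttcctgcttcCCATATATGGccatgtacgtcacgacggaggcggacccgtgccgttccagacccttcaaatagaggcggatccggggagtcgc
FOS: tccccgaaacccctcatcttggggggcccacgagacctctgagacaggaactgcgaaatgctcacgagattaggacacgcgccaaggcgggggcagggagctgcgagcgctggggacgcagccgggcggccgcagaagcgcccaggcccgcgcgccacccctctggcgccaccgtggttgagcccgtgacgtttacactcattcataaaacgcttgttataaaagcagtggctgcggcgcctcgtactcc
IER2: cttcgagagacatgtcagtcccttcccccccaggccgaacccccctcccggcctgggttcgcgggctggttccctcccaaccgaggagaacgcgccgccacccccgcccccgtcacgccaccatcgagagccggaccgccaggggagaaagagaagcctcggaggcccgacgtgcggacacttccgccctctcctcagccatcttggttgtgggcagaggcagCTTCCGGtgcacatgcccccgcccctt
The motifs were the CArG box, the cAMP response element TGACGTCA, the AP-1 site TGANTCA and the ETS site CCGGAAG, and no match overlapped another in these genes. EGR1 held 2 CArG boxes, at positions -105 and -83 from the start site, IER2 held 1 ETS site on the other strand, and FOS held none of the 4 in this window. Sequence more than 250 bases before the start was not searched, so sites further upstream would be missed. A promoter was matched for 20 of the 31 genes. Among those 20, the CArG box was found in 1 gene, the cAMP response element in 2 (DUSP1 and MAFF), the AP-1 site in 1 (EMP1) and the ETS site in 1 (IER2). Over all 35116 RefSeq promoters of this length, the CArG box was present in 1.16%, the cAMP response element in 1.65%, the AP-1 site in 6.57% and the ETS site in 8.52%. A match describes the letters of the window and is not evidence of binding.

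The arrays had medians between 5.18 and 5.34 log2. Epithelial markers were present, with 8 of 12 at a mean of at least 5 (the list averaged 7.91 to 8.25 on the spiky arrays and 8.07 to 8.37 on the cystic arrays), while the intestinal markers KRT20, CDX2, CDX1 and CDH17 lay below 5. Of the endothelial markers, 0 of 4 reached 5, at list means of 3.83 to 4.42 on the spiky arrays and 3.73 to 4.27 on the cystic arrays. Of the leukocyte markers, 3 of 7 measured reached 5 (CD3D, CSF1R and CORO1A), and the list averaged 4.01 to 4.35 on the spiky arrays and 4.29 to 4.61 on the cystic arrays; the part of this in the differences between the clones was not tested. Of the fibroblast markers, 2 of 10 reached 5 (COL1A1 and FBLN1), and the list averaged 4.01 to 4.19 on the spiky arrays and 3.98 to 4.28 on the cystic arrays. In bulk RNA of this kind, fewer cells expressing a gene and less RNA per cell cannot be told apart.

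**Figure D1:**
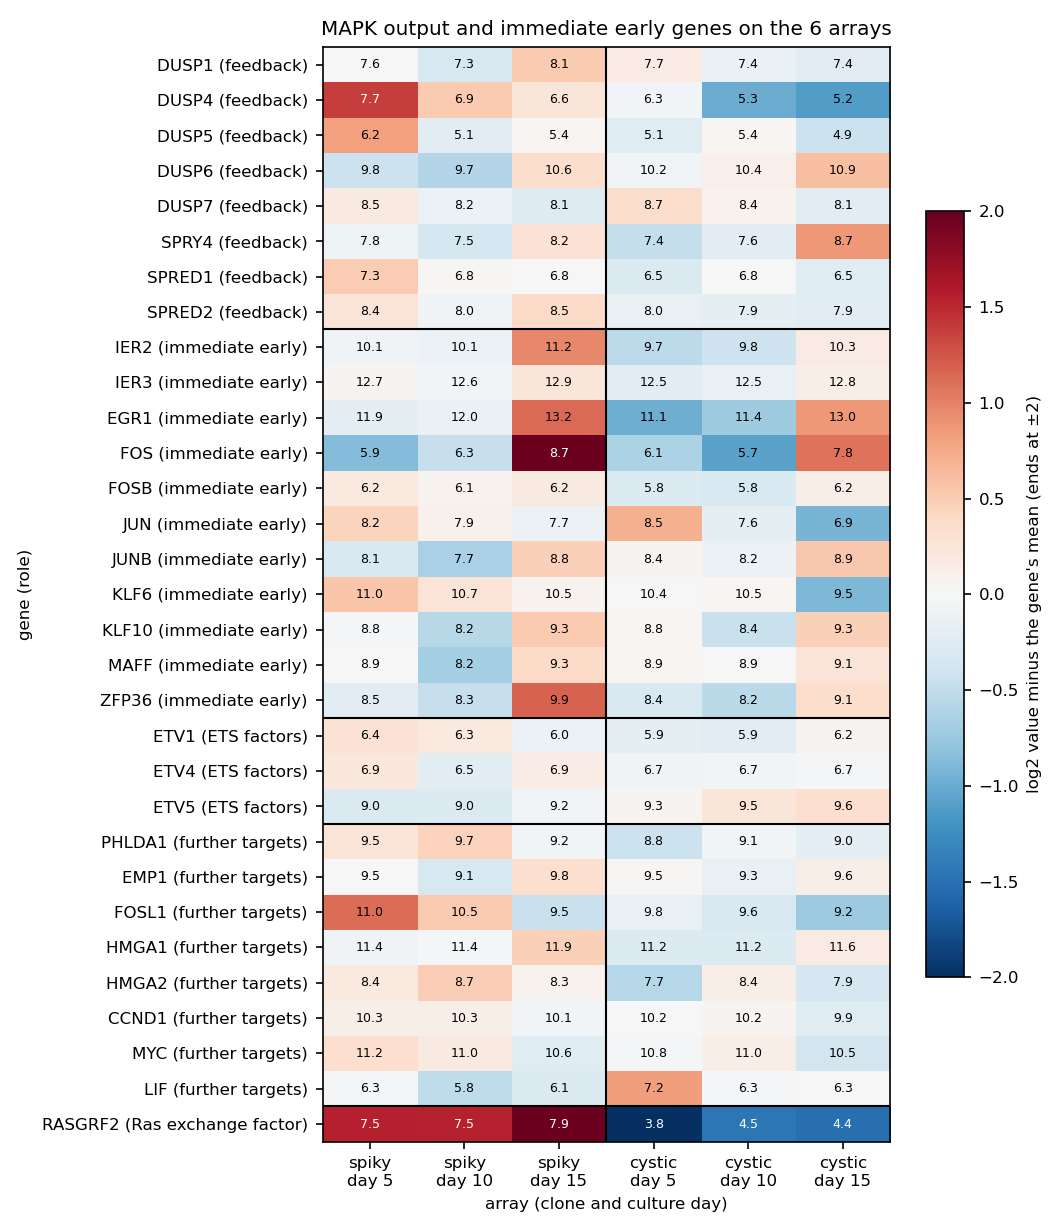
Heat map of the 31 genes (rows, grouped by role) on the 6 arrays (columns, spiky days 5, 10 and 15, then cystic days 5, 10 and 15). Colour is the log2 value minus the gene's own mean over the 6 arrays, and the number in each cell is the log2 value. RASGRF2 splits by clone, at 7.48 to 7.90 in the spiky clone and 3.85 to 4.50 in the cystic clone, whereas FOS and EGR1 are highest on the day 15 arrays of both clones.

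The first comparison set the spiky clone against the cystic clone across the 3 days. Of the 31 genes, 8 were higher and 2 were lower in the spiky clone. RASGRF2, DUSP4 and FOSL1 showed the largest differences, and DUSP6 and ETV5 were the lower ones. RASGRF2 is in this count and in later ones that name it, although it passed the filter only through the spiky arrays. These calls were made with limma, with culture day as a factor, at a Benjamini-Hochberg adjusted p under 0.05 over all 12317 genes. The background of the same fit was 1403 genes called, or 11.4%, with 3.65% higher and 7.74% lower. Centring each array on its median gave 643 higher and 803 lower in place of 450 higher and 953 lower. The median difference was 0.25 over the 31 genes and -0.03 over all tested genes. The 10 called genes differed in the same direction at all 3 days, but the calls were made from these same differences, so this is no separate support.

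RASGRF2, an exchange factor that loads Ras and Rac with GTP, read 7.49, 7.48 and 7.90 in the spiky clone at day 5, 10 and 15, against 3.85, 4.50 and 4.44 in the cystic clone. The cystic arrays all lay below the filter level of 5, so the gene was at least 6.18-fold higher in the spiky clone, taking each cystic array at that level. The limma adjusted p of the fit was 7.23e-05, but RASGRF2 passed the filter only through the spiky arrays, where it is high, so the lower bound is the value to read. A second probe set read 7.72, 7.97 and 6.90 in the spiky clone, against 4.38, 4.08 and 4.22 in the cystic clone, again with every cystic array below 5.

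Among the 8 feedback genes, 1 was higher and 1 was lower in the spiky clone, and their median difference was 0.25. For all tested genes the median was -0.03, with 3.65% higher and 7.74% lower. DUSP4, a nuclear phosphatase of ERK and JNK, read 7.71, 6.86 and 6.57 in the spiky clone at day 5, 10 and 15, against 6.29, 5.35 and 5.22 in the cystic clone. Every spiky array was above every cystic array, and the means were 7.05 ± 0.59 and 5.62 ± 0.58 (SD over the 3 days, n = 3 arrays each). This SD includes the change with culture day and is not a spread of replicates. The difference was 1.43 (SE 0.16, limma adjusted p = 0.00118), or 2.69-fold, with 1.42, 1.52 and 1.35 at the 3 days, and both further probe sets above 5 had the same sign. DUSP6, a cytoplasmic phosphatase that acts on ERK, went the other way. It read 9.84, 9.68 and 10.63 in the spiky clone, against 10.23, 10.38 and 10.88 in the cystic clone, a difference of -0.44 (SE 0.10, limma adjusted p = 0.0241). The spiky value was below the cystic value of its own day at each day, although the ranges of the clones overlapped. Both further probe sets of DUSP6 were also lower in the spiky clone.

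The other 6 feedback genes did not pass the test between the clones. SPRED2 and SPRED1, inhibitors that act between Ras and RAF, had spiky arrays that did not overlap the cystic ones. SPRED2 read 8.37, 8.05 and 8.49 in the spiky clone, against 7.96, 7.93 and 7.90 in the cystic clone (difference 0.37, SE 0.14, limma adjusted p = 0.139), and only 1 of its 2 further probe sets shared the sign. SPRED1 differed by 0.36 (SE 0.19, limma adjusted p = 0.290). DUSP5, a nuclear ERK phosphatase with a mean close to the filter at 5.34, differed by 0.43 (SE 0.25, limma adjusted p = 0.345). DUSP1, DUSP7 and SPRY4 had differences of 0.13, -0.13 and -0.11. Over all 31, 7 genes had groups that did not overlap, 6 of them higher (DUSP4, SPRED1, SPRED2, KLF6, PHLDA1 and RASGRF2) and 1 lower (ETV5), where the background over all tested genes was 15.6% (5.5% higher and 10.1% lower).

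**Figure D2:**
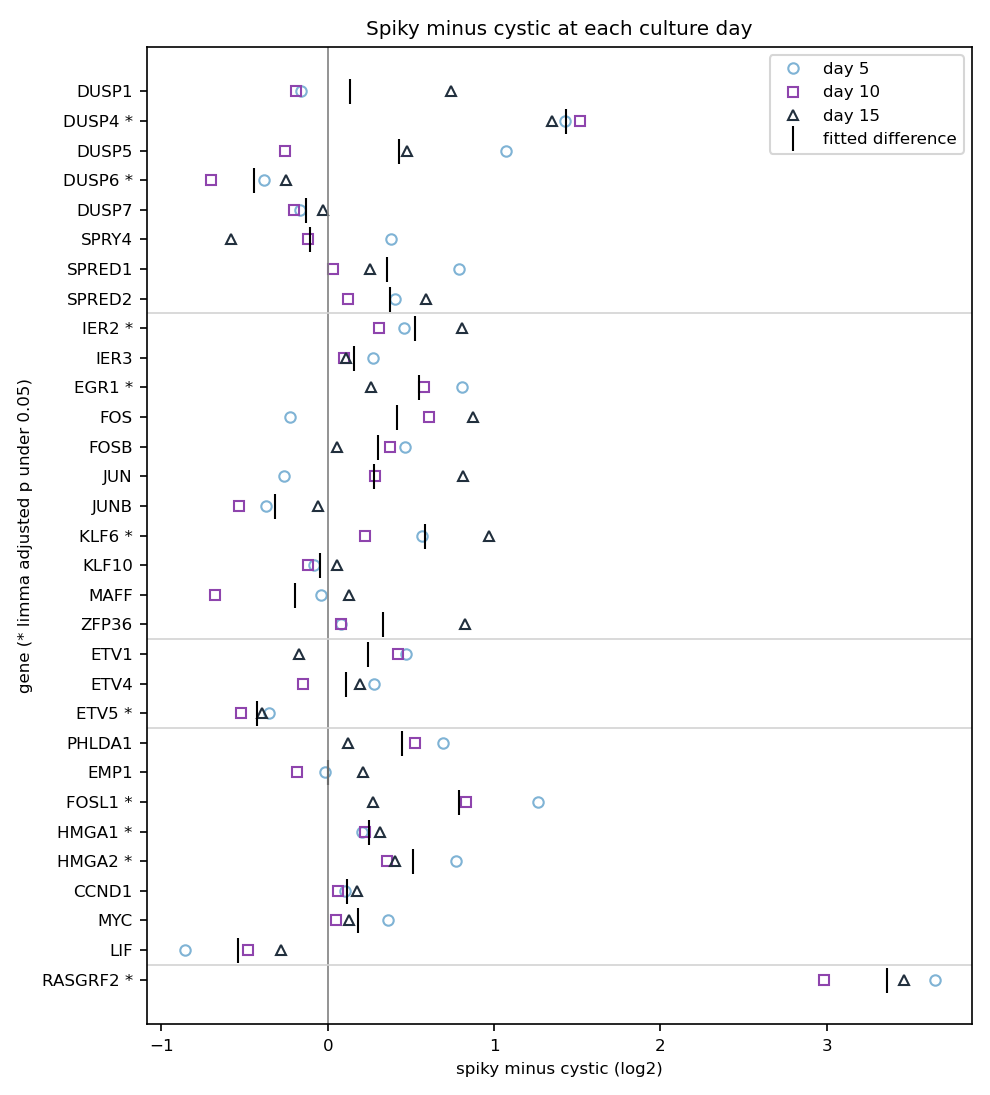
Spiky minus cystic log2 difference for each of the 31 genes (rows, grouped by role), with a marker for each culture day, a bar at the fitted difference and an asterisk on genes called by limma. DUSP4 lies between 1.35 and 1.52, while the 3 days of FOSL1 spread over 1.26, 0.83 and 0.27; the points of RASGRF2 are not exact, since its cystic arrays are below log2 5.

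Of the 11 immediate early genes, 3 were higher and none was lower in the spiky clone by the limma test. Their median difference was 0.30, against -0.03 over all tested genes, of which 3.65% were higher and 7.74% lower. EGR1, a zinc finger transcription factor, read 11.94, 11.97 and 13.25 in the spiky clone, against 11.13, 11.39 and 12.98 in the cystic clone. The difference was 0.55 (SE 0.09, limma adjusted p = 0.00593), or 1.46-fold, and both further probe sets had the same sign. IER2, a short-lived nuclear regulator, read 10.13, 10.08 and 11.15 in the spiky clone, against 9.67, 9.77 and 10.35 in the cystic clone. Its difference was 0.52 (SE 0.11, limma adjusted p = 0.0149), or 1.44-fold. For both genes the spiky value was above the cystic value of the same day, but the day 15 cystic array overlapped the early spiky arrays. KLF6, a Krüppel-like transcription factor, read 11.01, 10.71 and 10.52 in the spiky clone, against 10.44, 10.49 and 9.55 in the cystic clone, without overlap. It differed by 0.59 (SE 0.13, limma adjusted p = 0.0192), and all 3 further probe sets had the same sign.

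The other 8 immediate early genes did not pass between the clones. Their differences ranged from -0.32 for JUNB to 0.42 for FOS, both members of the AP-1 transcription factor family. The median of the 11 genes was 0.08 at day 5, 0.22 at day 10 and 0.26 at day 15, with 6, 8 and 10 of 11 above 0. The feedback median on the same days was 0.39, -0.15 and 0.37. The feedback median minus the immediate early median was -0.06 in the fitted differences, and 0.31, -0.37 and 0.10 day by day, so its sign did not hold across days.

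The 3 ETS factors, transcription factors whose transcription follows ERK activity, gave 1 lower gene and none higher (background 7.74% and 3.65%). ETV5 read 8.98, 9.00 and 9.22 in the spiky clone, against 9.34, 9.52 and 9.61 in the cystic clone. The groups did not overlap, with means of 9.07 ± 0.13 and 9.49 ± 0.14 (SD over the 3 days, n = 3 arrays each). The difference was -0.42 (SE 0.10, limma adjusted p = 0.0297). All 4 further probe sets were lower in the spiky clone, but with the mean of its probe sets above 5 the difference was -0.27 and no longer passed (limma adjusted p = 0.178). ETV1 differed by 0.24 (SE 0.19, limma adjusted p = 0.503) and ETV4 by 0.11 (SE 0.17, limma adjusted p = 0.761).

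Among the 8 further targets, 3 were higher in the spiky clone and none was lower by the limma test, with a median difference of 0.22. All tested genes had a median of -0.03, with 3.65% higher and 7.74% lower. FOSL1, the AP-1 subunit also called FRA1, read 11.04, 10.45 and 9.48 in the spiky clone, against 9.78, 9.62 and 9.21 in the cystic clone. The difference was 0.79 (SE 0.16, limma adjusted p = 0.0147), or 1.73-fold, and the clones were closest at day 15. HMGA1, an architectural chromatin protein, read 11.40, 11.42 and 11.94 in the spiky clone, against 11.20, 11.19 and 11.62 in the cystic clone (difference 0.25, SE 0.06, limma adjusted p = 0.0362). HMGA2, its developmentally restricted relative, read 8.42, 8.72 and 8.30 in the spiky clone, against 7.65, 8.36 and 7.89 in the cystic clone. Its difference was 0.51 (SE 0.14, limma adjusted p = 0.0456), the closest to the threshold of the 10 calls, and 5 of its 6 further probe sets had the same sign. With the mean of its probe sets above 5 the difference was 0.25 (limma adjusted p = 0.430).

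PHLDA1, a pleckstrin-homology-like protein induced by MAPK signalling, missed the threshold at a difference of 0.45 (SE 0.13, limma adjusted p = 0.0589), with 9.47, 9.67 and 9.15 in the spiky clone against 8.78, 9.15 and 9.03 in the cystic clone. Its other 5 probe sets were also higher in the spiky clone, by 0.33 to 1.34, and with the mean of all its probe sets the difference was 0.78 (limma adjusted p = 0.0244). LIF, a cytokine of the interleukin-6 family, had a difference of -0.54 (SE 0.18, limma adjusted p = 0.0960). MYC, CCND1, the cyclin D1 gene, and EMP1, an epithelial membrane protein gene, differed by 0.18, 0.11 and 0.00, and none of these 3 passed.

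**Figure D3:**
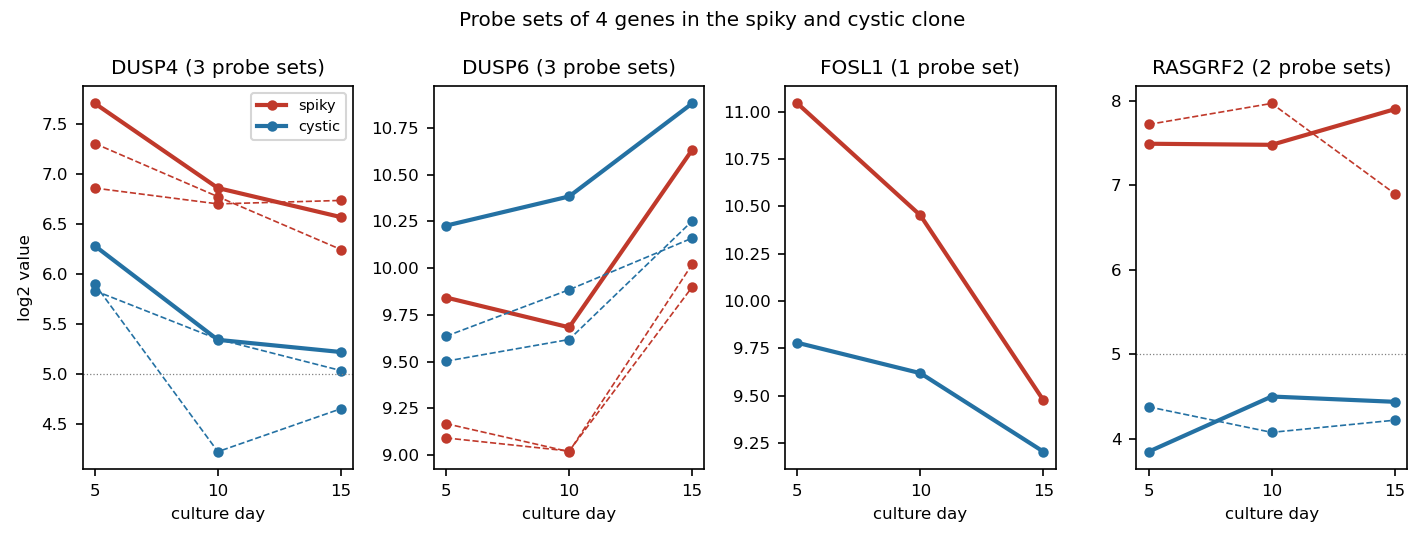
Log2 values by culture day for the probe sets of DUSP4, DUSP6, FOSL1 and RASGRF2 with a mean of at least 5, in the spiky clone (red) and the cystic clone (blue); thick solid lines are the chosen probe set, thin dashed lines are the others, and the dotted line marks log2 5 where it falls in the panel. The spiky lines of DUSP4 lie above the cystic line of the same probe set at every day, those of DUSP6 lie below, and the cystic lines of RASGRF2 stay under 5.

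The count of calls between the clones changed with the arrays kept. Leaving out either day 5 array left 2 called (DUSP4 and RASGRF2), either day 10 array left 6, and without either day 15 array 14 were called. A fit that left out culture day called 1 (RASGRF2). RASGRF2 passed the filter only through the spiky arrays, so its place in these counts is no support.

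The second question was how the genes changed over culture time. Between day 10 and day 5, none of the 31 genes passed the limma test, 5 had an unadjusted p under 0.05 (1658 of all 12317 genes did), and the background of calls was 2 of 12317 genes (0.0162%, with 0.00812% higher and 0.00812% lower). At day 15 against day 5, 10 genes were higher and 6 were lower, with FOS and EGR1 showing the largest increases and DUSP4, JUN and FOSL1 the largest decreases. The background there was 3982 genes called, or 32.3%, with 10.4% higher and 21.9% lower, and cyclic loess scaling gave 1679 higher and 2061 lower in place of 1287 higher and 2695 lower. At day 15 against day 10, 12 were higher and 3 were lower, where the background was 22.6% (8.66% higher and 14% lower), and cyclic loess gave 1327 higher and 1354 lower while centring on the median gave 859 higher and 2318 lower, in place of 1067 higher and 1719 lower. The day 15 against day 5 and day 15 against day 10 contrasts share the day 15 arrays. The median change of the 31 genes was 0.07 from day 5 and 0.19 from day 10 to day 15, and that of all tested genes was -0.11 and -0.01. All 16 genes called between day 15 and day 5 changed in the same direction in both clones, which again is not separate from the calls.

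Immediate early genes made up 7 of the 10 increases at day 15 against day 5. Of the 11 genes of this role, 7 rose and 2 fell (median change 0.50), and 8 rose and 1 fell at day 15 against day 10 (median change 0.83). The medians of all tested genes were -0.11 and -0.01, with 10.4% and 8.66% higher and 21.9% and 14% lower. FOS read 5.88, 6.27 and 8.70 in the spiky clone at day 5, 10 and 15, and 6.10, 5.67 and 7.83 in the cystic clone. Both day 15 arrays stood above all 4 earlier arrays, and FOS was 4.84-fold higher at day 15 than at day 5 (log2 2.27, SE 0.27, limma adjusted p = 0.000882). EGR1 was 2.99-fold higher at day 15 than at day 5 (log2 1.58, SE 0.11, limma adjusted p = 0.00017), again with both day 15 arrays above all earlier ones. Both genes passed in this contrast and against day 10 under all 15 alternative settings.

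ZFP36, an RNA-binding protein that promotes decay of short-lived transcripts, read 8.53, 8.31 and 9.94 in the spiky clone and 8.45, 8.23 and 9.11 in the cystic clone. It was 2.05-fold higher at day 15 than at day 5 (log2 1.03, SE 0.20, limma adjusted p = 0.00505). IER2 was 1.81-fold higher (log2 0.85, SE 0.13, limma adjusted p = 0.00208), by 1.03 in the spiky clone and 0.68 in the cystic clone. JUNB read 8.05, 7.71 and 8.85 in the spiky clone and 8.42, 8.24 and 8.90 in the cystic clone, a change of 0.64 (SE 0.17, limma adjusted p = 0.0192). All 3 of these genes were highest at day 15 in both clones. KLF10, a TGF-beta-inducible Krüppel-like factor, read 8.76, 8.24 and 9.32 in the spiky clone and 8.84, 8.35 and 9.27 in the cystic clone. Its change was 0.50 from day 5 (SE 0.14, limma adjusted p = 0.0241) and 1.001 from day 10 (SE 0.14, limma adjusted p = 0.00231), since the day 10 arrays were the lowest of both clones. IER3, an early gene that protects against cell death, moved least of the 7, with 12.73, 12.62 and 12.93 in the spiky clone and 12.46, 12.52 and 12.82 in the cystic clone (change from day 5 of 0.27, SE 0.07, limma adjusted p = 0.0127).

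JUN and KLF6 were the 2 immediate early genes that fell. JUN, the founding AP-1 subunit, read 8.23, 7.88 and 7.67 in the spiky clone and 8.49, 7.60 and 6.86 in the cystic clone at day 5, 10 and 15. Its change from day 5 to day 15 was -1.10 (SE 0.24, limma adjusted p = 0.00921), and both further probe sets had the same sign. The probe set used for JUN is of a class that can also bind related sequences. KLF6 changed by -0.69 (SE 0.16, limma adjusted p = 0.0101), by -0.49 in the spiky clone and -0.90 in the cystic clone. MAFF, a small Maf factor, passed only against day 10, at 0.66 (SE 0.19, limma adjusted p = 0.0386), and not with the mean of its probe sets (0.50, limma adjusted p = 0.109), and FOSB did not pass in any contrast, with 5.75 to 6.25 over the 6 arrays.

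**Figure D4:**
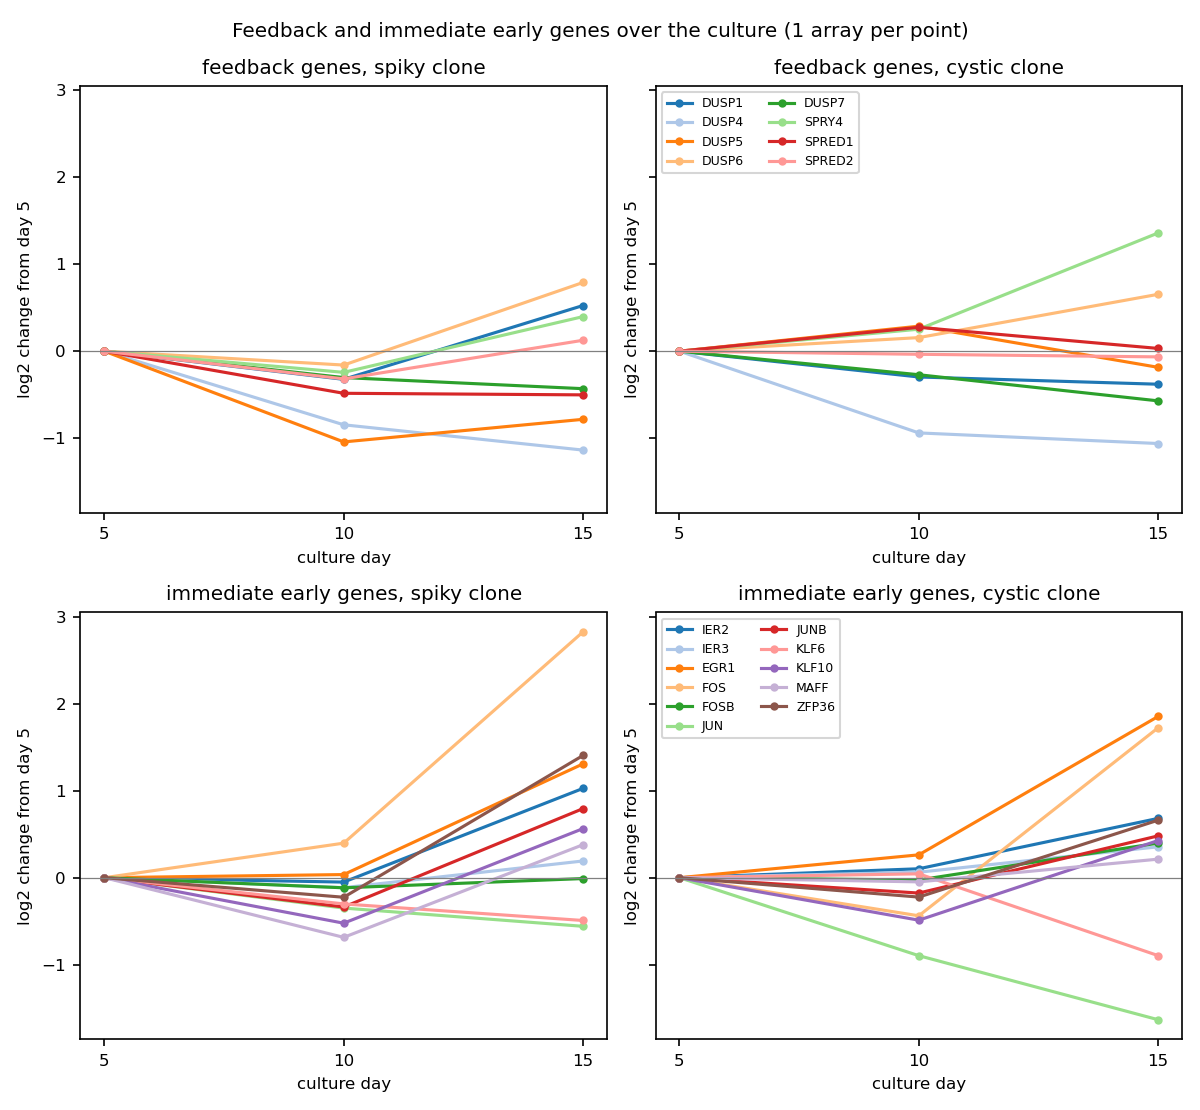
Log2 change from day 5 against culture day for the 8 feedback genes (top row) and the 11 immediate early genes (bottom row), in the spiky clone (left) and the cystic clone (right), 1 line for each gene. FOS ends at 2.83 in the spiky clone and 1.72 in the cystic clone, and DUSP4 ends at -1.14 and -1.06.

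The 8 feedback genes split, with 2 higher and 2 lower at day 15 against day 5 and a median change of -0.10. All tested genes had a median of -0.11, with 10.4% higher and 21.9% lower. The share lower and the median thus lay near this background. DUSP6 was 1.65-fold higher at day 15 (log2 0.72, SE 0.13, limma adjusted p = 0.00336), by 0.79 in the spiky clone and 0.65 in the cystic clone. SPRY4, a Sprouty inhibitor of receptor tyrosine kinase signalling, read 7.77, 7.52 and 8.17 in the spiky clone and 7.39, 7.64 and 8.75 in the cystic clone. Its change was 0.88 (SE 0.23, limma adjusted p = 0.0181), made of 0.40 in the spiky clone and 1.36 in the cystic clone. DUSP4 fell by 1.10 (SE 0.20, limma adjusted p = 0.00421), of which the day 10 against day 5 change was -0.89 (limma adjusted p = 0.175) and the day 15 against day 10 change was -0.21 (limma adjusted p = 0.509). DUSP7, a phosphatase of ERK, read 8.50, 8.19 and 8.07 in the spiky clone and 8.67, 8.39 and 8.09 in the cystic clone, a change of -0.50 (SE 0.15, limma adjusted p = 0.0329). DUSP4 and DUSP6 therefore had opposite signs in both comparisons, DUSP4 higher in the spiky clone and lower at day 15, and DUSP6 lower in the spiky clone and higher at day 15. DUSP1, a phosphatase of p38 and JNK, had changes of 0.53 in the spiky clone and -0.38 in the cystic clone and did not pass.

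Set against each other, the feedback median minus the immediate early median was -0.60 at day 15 against day 5, at -0.72 in the spiky clone and -0.55 in the cystic clone. Against day 10 it was -0.78, at -0.73 in the spiky clone and -0.68 in the cystic clone. These are medians of fitted changes with no test, and the genes of each role were chosen with earlier results known. Between day 10 and day 5 the change was below 0 for all 8 feedback genes in the spiky clone, with a median of -0.32. Their median was 0.06 in the cystic clone, where 4 of the 8 were below 0, and the immediate early medians were -0.22 and -0.05. Over all tested genes the medians were -0.13 in the spiky clone and -0.05 in the cystic clone. In the fit over both clones, 34.2% of all tested genes and 1 of the 8 feedback genes had a change above 0. The share of all tested genes was not counted for each clone, and none of the 8 feedback genes passed by limma.

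Among the 8 further targets, 1 rose and 2 fell at day 15 against day 5 (median change -0.12), near the background. That background was 10.4% higher and 21.9% lower, with a median of -0.11. FOSL1 fell by 1.07 (SE 0.20, limma adjusted p = 0.00426), or 2.10-fold, with changes of -1.57 in the spiky clone and -0.57 in the cystic clone. MYC, a transcription factor of cell growth, read 11.19, 11.04 and 10.62 in the spiky clone and 10.83, 10.99 and 10.49 in the cystic clone, a change of -0.46 (SE 0.10, limma adjusted p = 0.00945). HMGA1 rose by 0.49 (SE 0.08, limma adjusted p = 0.00242), with both day 15 arrays above all earlier ones. FOSL1 and MYC were lowest at day 15 in both clones. EMP1 passed against day 10, at 0.46 (SE 0.13, limma adjusted p = 0.0395), a call lost under 9 of 15 alternatives. Its change from day 5 was 0.21 for the brightest probe set and did not pass, while the mean of its probe sets above 5 gave 0.73 (limma adjusted p = 0.0156). The PHLDA1 probe sets disagreed over time, with -0.03 for the brightest and -1.66 to 0.14 for the other 5, and the mean of its probe sets gave -0.73 (limma adjusted p = 0.0304). HMGA2 disagreed likewise, with 0.06 for the brightest probe set, the same sign in 1 of 6 others, and -0.68 for the mean of its probe sets (limma adjusted p = 0.0389). ETV1, ETV4, ETV5, CCND1, LIF and RASGRF2 did not pass in any contrast of days. For CCND1 the change from day 5 to day 15 was -0.21, and it passed at -0.43 with the mean of its probe sets (limma adjusted p = 0.0295) and at -0.29 with arrays centred on their median (limma adjusted p = 0.0490), where its change from day 10 also passed, at -0.32 (limma adjusted p = 0.0499). ETV5 changed by 0.25, and passed at 0.40 under cyclic loess (limma adjusted p = 0.0336).

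An array quality measure, 1 fibroblast marker and 3 epithelial markers moved with culture time beside these changes. The 3′ minus 5′ difference of the ACTB control probe sets, a gauge of RNA integrity and of how far labelling ran from the 3′ end, was 2.73, 2.74 and 3.10 in the spiky clone at day 5, 10 and 15, and 2.83, 3.18 and 3.28 in the cystic clone. COL1A1, a fibroblast collagen gene, was 1.38 higher at day 15 than at day 5 (limma adjusted p = 0.00203), with 6.41, 6.40 and 7.54 in the spiky clone and 6.50, 7.02 and 8.12 in the cystic clone. FBLN1, the other fibroblast marker tested, changed by 0.21 (limma adjusted p = 0.487). The mean of the 10 listed fibroblast markers was 4.01, 4.19 and 4.15 in the spiky clone and 3.98, 4.01 and 4.28 in the cystic clone. Of 8 epithelial markers tested, 1 rose and 2 fell at day 15 against day 5, where the background was 10.4% higher and 21.9% lower. ELF3 changed by 0.91 (limma adjusted p = 0.00989), KRT18 by -0.66 (limma adjusted p = 0.00106) and KRT8 by -0.48 (limma adjusted p = 0.0412). Between the clones 1 of the 8 passed, VIL1 at -0.68 (limma adjusted p = 0.0411), where the background was 11.4%. The GAPDH 3′ minus 5′ difference was 0.60, 0.63 and 0.49 in the spiky clone and 0.65, 0.79 and 0.63 in the cystic clone. On each day both 3′ minus 5′ differences were lower in the spiky clone than in the cystic clone. The part of these measures in the changes over time and in the differences between the clones was not tested.

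The third question was whether the clones changed differently with time. The slope was fitted with day as a number. A rise confined to day 15, such as that of FOS, therefore adds to the scatter of this fit and limits what it can detect. The difference in slope between the clones was called for 0 of 12317 genes (0%). An unadjusted p under 0.05 was found for 309, and 2 of these were among the 31 genes. FOSL1 had a slope difference, spiky minus cystic, of -0.99 per 10 days (SE 0.32, limma adjusted p = 0.999), and JUN of 1.07 per 10 days (SE 0.40, limma adjusted p = 0.999). FOSL1 decreased more in the spiky clone and JUN decreased more in the cystic clone, and neither difference passed the test.

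**Figure D5:**
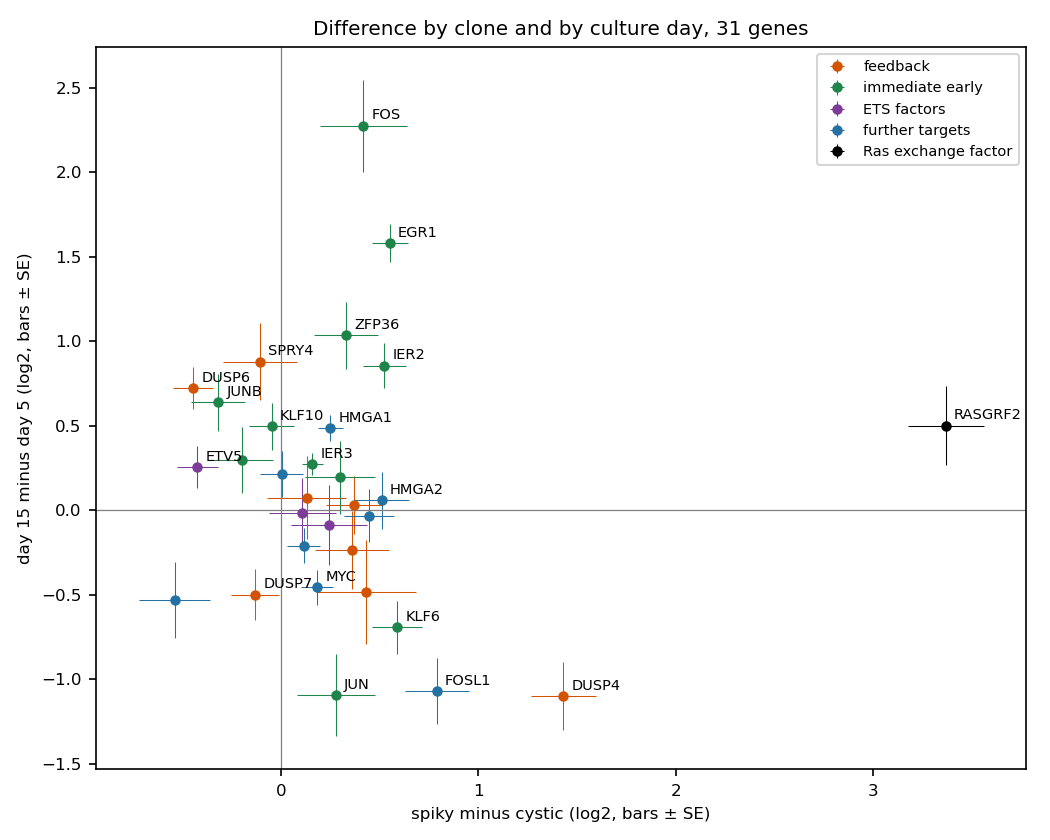
Spiky minus cystic difference (x axis, log2) against day 15 minus day 5 difference (y axis, log2) for the 31 genes, coloured by role, with bars of ± 1 SE. FOS and EGR1 lie highest, at 2.27 and 1.58, DUSP4, JUN and FOSL1 lie lowest, at -1.10, -1.10 and -1.07, and RASGRF2 lies far right, at a position that is not exact because its cystic arrays are below log2 5.

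Counted over both comparisons, 7 of the 31 genes passed between the clones and between day 15 and day 5. These were DUSP4, DUSP6, IER2, EGR1, KLF6, FOSL1 and HMGA1. A total of 12 genes passed in neither. Over all 12317 tested genes, 582 (4.73%) passed in both and 7514 (61%) in neither; the 2 comparisons were made on the same 6 arrays. The day 15 against day 5 count was 4 (EGR1, FOS, JUN and SPRY4) without the spiky day 5 array and 9 without the cystic day 5 array.

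Other genes of the pathway were compared in the same fit, from 2 lists chosen with earlier results of these data known. Of 25 measured genes of the RAS-ERK cascade itself (receptor adaptors, exchange factors, kinases and the ERK-responsive ELK factors), none differed between the clones by the limma test, with 1 at an unadjusted p under 0.05, where 3011 of all 12317 genes were, and a median difference of -0.03. The background of calls between the clones was 11.4%. RPS6KA2, a kinase activated by ERK, had the largest difference, at -0.61 (SE 0.24, limma adjusted p = 0.153). RASGRF1, a relative of RASGRF2, followed at -0.44 (SE 0.20, limma adjusted p = 0.214). At day 15 against day 5, 2 of the 25 rose and 3 fell, where the background was 10.4% higher and 21.9% lower. RASGRF1 rose by 1.08 (SE 0.24, limma adjusted p = 0.00934) and SOS1, another Ras exchange factor, by 0.61 (SE 0.15, limma adjusted p = 0.0135). HRAS fell by 0.83 (SE 0.17, limma adjusted p = 0.00604) and PEBP1, an inhibitor of RAF, by 0.29 (SE 0.07, limma adjusted p = 0.0154).

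Of 27 tested further feedback and early response genes, 3 were higher and 5 lower in the spiky clone, with a median of -0.04. The background was 3.65% higher and 7.74% lower. SPRY1, a Sprouty relative of SPRY4, was higher by 1.28 (SE 0.15, limma adjusted p = 0.00145), and ZFP36L2, a relative of ZFP36, by 0.57 (SE 0.10, limma adjusted p = 0.00872). EPHA4, an Eph receptor, differed by -1.08 (SE 0.19, limma adjusted p = 0.00828), and ZFP36L1, another relative, by -0.56 (SE 0.12, limma adjusted p = 0.0201). At day 15 against day 5, 6 rose and 5 fell, with a median of -0.02, where the background was 10.4% higher and 21.9% lower. FOSL2, the AP-1 subunit related to FOSL1, rose by 0.95 (SE 0.17, limma adjusted p = 0.00412), and MCL1, a survival gene, by 0.44 (SE 0.08, limma adjusted p = 0.00420). DUSP14 fell by 1.51 (SE 0.21, limma adjusted p = 0.00142) and CCN1, a matricellular early gene, by 1.79 (SE 0.38, limma adjusted p = 0.00804).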

How the data were processed

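RNA from cell-containing collagen layers was hybridised to Affymetrix U133 Plus 2.0 arrays, 1 for each clone and day. The authors deposited log2 values for 54675 probe sets, summarised with RMA per the submitters' processing notes; the software version and array batches are not stated. Here probe sets with a single gene symbol (41097; 1801 had several and 11777 none, and 41043 were matched to RefSeq GRCh38.p14) were reduced to the brightest per gene over the 6 arrays, and genes with a mean log2 value of at least 5 (12317 of 19775) were fitted in limma 3.58.1 (R 4.3.3) with clone and day as factors, eBayes with an intensity trend, and Benjamini-Hochberg adjustment over all of them. That fit has 2 residual degrees of freedom. The slope difference came from a separate fit with day as a number. The scripts were tested on simulated data. The number of arrays limits the precision, and array intensities give no count-based interval.

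The day of culture pairs the arrays of the clones by design. Deviations from the clone means correlated at 0.608, 0.496 and 0.719 for arrays of the same day and at -0.655 to 0.291 for different days. Within a clone the deviations of a gene cancel out, so positive same-day values force negative values among different days.

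For a group with arrays under log2 5, those arrays were set to 5 before a fold was taken, which gives a lower bound. The members and the other gene lists were chosen with earlier results of these data known. All 31 members are accounted for; values of every array are given for those called between clones or between day 15 and day 5, and from the other lists the 2 rising and 2 falling called genes with the smallest p are named, or the 2 largest differences where none was called. Alternatives were the filter, the probe set rule, the array scaling, the variance model, the day factor, and leaving out each array. Promoters were taken from RefSeq on GRCh38.p14.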

Additional observations from a re-analysis of the deposited data

Results flagged for a closer look

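For 2 of the 31 genes, the changes from day 5 to both later days ran in opposite directions in the clones on the brightest probe set. How many of all tested genes did so was not counted. SPRED1, an inhibitor of Ras and RAF signalling, changed by -0.50 in the spiky clone and 0.03 in the cystic clone from day 5 to day 15, a difference of -0.53. ETV4, an ETS factor, changed by -0.06 in the spiky clone and 0.03 in the cystic clone, a difference of -0.085. The further probe sets above 5 did not show the pattern. That of SPRED1 rose in both clones, with 5.23, 5.43 and 5.52 in the spiky clone and 5.10, 5.12 and 5.22 in the cystic clone. That of ETV4 fell from day 5 to day 10 in both, from 6.09 to 5.80 in the spiky clone and from 6.15 to 5.93 in the cystic clone. Each rests on 1 array for each clone and day, and neither difference between the clones was tested at these days. The slope over the 3 days did not differ between clones by limma for either gene (adjusted p = 0.999).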

How the results depend on the processing

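The limits are those of 6 arrays with 1 for each clone and day: the count of calls moves with single arrays, and a gene that misses the threshold is not shown to be unchanged. Of the 31 genes, 10 were called between the clones, and this became 2 without the intensity trend (DUSP4 and RASGRF2) and 2 to 14 when 1 array was left out. Without the replicate block (culture day left out) it became 1 (RASGRF2, which passed the filter only through the spiky arrays). For day 10 against day 5 the count of 0 ranged from 0 to 2 when 1 array was left out, with DUSP4 and KLF10 lower without either day 15 array. For day 15 against day 5 the count of 16 ranged from 4 to 15 when 1 array was left out and from 13 to 20 under the other alternatives, with 20 for the mean of probe sets. For day 15 against day 10 the count of 15 ranged from 7 to 15 when 1 array was left out and from 7 to 16 under the others, with 7 without the intensity trend. The slope difference stayed at 0 members under every alternative run.

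The feedback minus immediate early median at day 15 against day 5, -0.60, ranged from -0.75 to -0.44 when 1 array was left out and was -0.47 with the filter at 6. The same median between the clones, -0.06, ranged from -0.30 to 0.12 over the alternatives, so its sign was not stable.

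Over the 41 single-gene calls and their alternatives, 502 values kept their direction and side of the threshold, 122 kept their direction but no longer passed, and 0 reversed. Over all tested genes, the 1403 calls between clones became 691 without the intensity trend, 72 without culture day and 507 to 2157 when 1 array was left out. The same ranges were 0 to 469 for day 10 against day 5, 761 to 4318 for day 15 against day 5, 1019 to 3577 for day 15 against day 10 and 0 to 33 for the slope difference, and day 15 against day 10 gave 1444 calls without the intensity trend. With the filter at 6, RASGRF2 (mean 5.94) was not tested. The cause of these changes was not tested.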
